A study of Homo sapiens with 4 samples.

Results

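H3K9la, histone H3 carrying a lactyl group on lysine 9, was mapped by ChIP-seq in KYSE30, an established cell line of oesophageal squamous cell carcinoma, in an arm named sg3 and an arm named V2. The regions described here lie inside the bodies of protein-coding genes and were found in both arms. Each is a record of the sg3 peak list on chromosomes 1 to 22 or X, narrower than 5000 bases, that overlaps exactly 1 record of the V2 list and whose summit (the base with the highest ChIP pileup) lies in a protein-coding gene and more than 1 kb from the ends of every such gene. The regions were thus chosen by their position and by being called in both lists. There were 9608 of them among 56875 sg3 records, which is 16.9% (exact Clopper-Pearson 95% CI 16.6 to 17.2%). They made up 43.8% of the 21933 sg3 records with a summit in a gene body. A further 10721 gene-body records narrower than 5000 bases had no V2 partner, 1592 overlapped 2 or more V2 records, and 12 with 1 partner were 5000 bases or wider.

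The study has 4 samples, since the sg3 arm and the V2 arm each have a library from the H3K9la antibody and one of input chromatin. The sg3 and V2 cells are the same line in the same medium, and the labels give no further treatment or genotype for either name. The series title presents SIRT3 as an eraser of this mark. There is 1 peak list per arm without replicates, so no test of the arms was possible, every comparison below is a description of these lists, and intervals cover counting error only. The read depth behind the lists is unknown.

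Lactylation is an acyl mark that ties lactate, the end product of glycolysis, to histone lysines, and lysine acylation of histone H3 is in general a mark of active promoters and enhancers. Regions far inside a gene can lie over enhancers in introns or over internal promoters from which shorter transcripts start. Such enhancers often sit in clusters, and a gene can host enhancers that act on a neighbour, so a region inside a gene need not belong to that gene's own control.

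A small number of the shared gene-body regions had their summit at an annotated internal start, and 4 of these, picked after their values were seen, are shown as examples of the sequence under the mark. FHL2 encodes a LIM-domain cofactor, ARHGEF37 a member of a guanine nucleotide exchange factor family, SCHIP1 a schwannomin-interacting protein and PDE4D a phosphodiesterase that degrades cyclic AMP. The sequences are RefSeq windows of GRCh38.p14 from 250 bases before to 50 bases after the start, written 5′ to 3′ on the gene's strand. Capitals mark each CG dinucleotide in FHL2 (chr2:105399002-105399301, minus strand) and in ARHGEF37 (chr5:149581248-149581547, plus strand).
FHL2: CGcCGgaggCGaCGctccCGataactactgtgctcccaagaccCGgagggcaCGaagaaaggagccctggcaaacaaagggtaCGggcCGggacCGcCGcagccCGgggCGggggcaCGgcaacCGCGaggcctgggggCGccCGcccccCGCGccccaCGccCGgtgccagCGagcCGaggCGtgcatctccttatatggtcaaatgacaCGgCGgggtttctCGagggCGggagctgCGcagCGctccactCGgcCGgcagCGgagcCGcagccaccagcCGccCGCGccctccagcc
ARHGEF37: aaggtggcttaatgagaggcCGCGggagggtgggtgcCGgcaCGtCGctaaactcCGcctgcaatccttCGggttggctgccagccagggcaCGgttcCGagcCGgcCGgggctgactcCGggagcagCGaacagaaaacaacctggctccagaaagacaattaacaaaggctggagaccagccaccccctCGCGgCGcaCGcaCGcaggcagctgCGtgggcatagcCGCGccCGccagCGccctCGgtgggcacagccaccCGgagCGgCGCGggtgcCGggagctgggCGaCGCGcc
Capitals mark the pattern TGANTCA (N is any base), which is its own reverse complement, in SCHIP1 (chr3:159852904-159853203, plus strand) and in PDE4D (chr5:59039427-59039726, minus strand).
SCHIP1: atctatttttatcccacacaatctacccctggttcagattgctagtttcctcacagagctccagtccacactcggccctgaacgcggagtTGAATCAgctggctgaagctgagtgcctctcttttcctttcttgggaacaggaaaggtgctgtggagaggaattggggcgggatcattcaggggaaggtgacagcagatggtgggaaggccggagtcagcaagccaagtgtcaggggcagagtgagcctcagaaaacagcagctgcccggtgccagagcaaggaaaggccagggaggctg
PDE4D: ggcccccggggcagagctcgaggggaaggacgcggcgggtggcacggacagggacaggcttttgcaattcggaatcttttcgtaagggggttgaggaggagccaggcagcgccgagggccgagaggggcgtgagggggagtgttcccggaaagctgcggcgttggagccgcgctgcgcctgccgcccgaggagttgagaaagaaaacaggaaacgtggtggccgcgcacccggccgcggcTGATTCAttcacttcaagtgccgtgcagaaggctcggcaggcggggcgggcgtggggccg

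The FHL2 window held 38 CG dinucleotides and the ARHGEF37 window 32. The region over the FHL2 start ran from 105398256 to 105400416 in the sg3 list, with a fold enrichment of 10.1, and its V2 partner ran from 105398314 to 105399876, with 6.10. Fold enrichment is the authors' ratio of the pileup at the summit over the background, from MACS2, and can be ranked only within its own list. The ARHGEF37 region, 29910 bases from the nearest gene end, had fold enrichments of 7.92 (sg3) and 5.52 (V2). In SCHIP1 the values were 11.4 in sg3 and 4.88 in V2, and in PDE4D they were 4.62 in sg3 and 5.93 in V2. The SCHIP1 summit also lies inside the readthrough gene IQCJ-SCHIP1, and the same region is counted for both.

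Internal starts were marked more often than their share of the gene bodies, but most of the shared gene-body regions lay elsewhere. Of the 9608 regions, 677 had a summit within 1 kb of an annotated internal start, which is 7.05% (95% CI 6.54 to 7.58%). Positions within 1 kb of an internal start made up 1.12% of the bases of gene bodies more than 1 kb from gene ends. The sg3-only gene-body regions were there about as often, at 6.87% (95% CI 6.40 to 7.37%). At more than 5 kb from every gene end the values were 5.62% for shared and 5.78% for sg3-only regions, against 0.938% of the bases. At these starts the shared regions had a median fold enrichment of 5.77 (quartiles 4.41 and 7.59) in the sg3 list, against 5.28 (4.00 and 7.33) for shared regions elsewhere in gene bodies. For sg3-only regions the order by fold enrichment was the other one, with 4.19 at these starts and 4.40 elsewhere. By the authors' -log10 q both classes were higher at these starts. The medians were 28.6 against 16.7 for shared regions and 10.7 against 8.58 for sg3-only regions. The start windows of RefSeq that held a shared summit were rich in CG, with a median of 33 dinucleotides per window over 75 windows, against 7 over all 8211 internal start windows and 14 over all 34961 start windows in the table. TGANTCA occurred in 3 of the 75 windows, in 9.67% of all internal start windows and in 7.68% of all start windows.

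Hairpins of microRNAs overlapped 13 of the shared regions. They are shown because they are short transcripts that lie inside a host gene. miR-330 lies in EML2, which encodes a microtubule-associated protein, miR-1260b in MAML2, a Notch coactivator gene, and miR-7845 in KLF7, a zinc finger transcription factor gene. Their RefSeq mature sequences follow, with the seed (bases 2 to 8) in capitals.
hsa-miR-330-3p: gCAAAGCAcacggccugcagaga
hsa-miR-330-5p: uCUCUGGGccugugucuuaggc
hsa-miR-1260b: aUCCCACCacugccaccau
hsa-miR-7845-5p: aAGGGACAgggagggucgugg
The 17 mature sequences of these 13 hairpins had 17 different seeds. The EML2 region, at chr19:45637300-45641261, had an enrichment of 12.5 in sg3 and 4.35 in V2, and its summit lay 1532 bases from the hairpin. In MAML2 the region over the hairpin had 6.87 in sg3 and 4.43 in V2, and the summit lay 294 bases away. The KLF7 region had 7.68 in sg3 and 6.09 in V2. The 13 hairpins are 1.505% (95% CI 0.804 to 2.56%) of the 864 hairpins in gene bodies. The share of gene-body bases under shared regions is not given here to set beside it. Of the shared regions 0.135% (95% CI 0.0721 to 0.231%) overlapped a hairpin. Among sg3-only gene-body regions 21 did, or 0.196% (95% CI 0.121 to 0.299%).

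The genes with the most shared gene-body regions were TIAM2, MACF1, IGF1R, RAD51B, AOPEP, MAML2, DLGAP1, ST3GAL3, VMP1, MYOF, HSF2BP and IGF2BP2, with 50 to 31 regions each. Over all 19974 protein-coding genes, 3055 had at least 1 such region, or 15.3%, with a median of 2 per marked gene. The regions were concentrated in few genes, since 202 genes with 10 or more held 33.5% of them, and 42 genes with 20 or more held 12.04%. At the other end, 1388 genes had a single region. Nearly all regions (9406) lay in 1 gene, and 202 lay in overlapping genes and were counted for each.

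**Figure D1:**
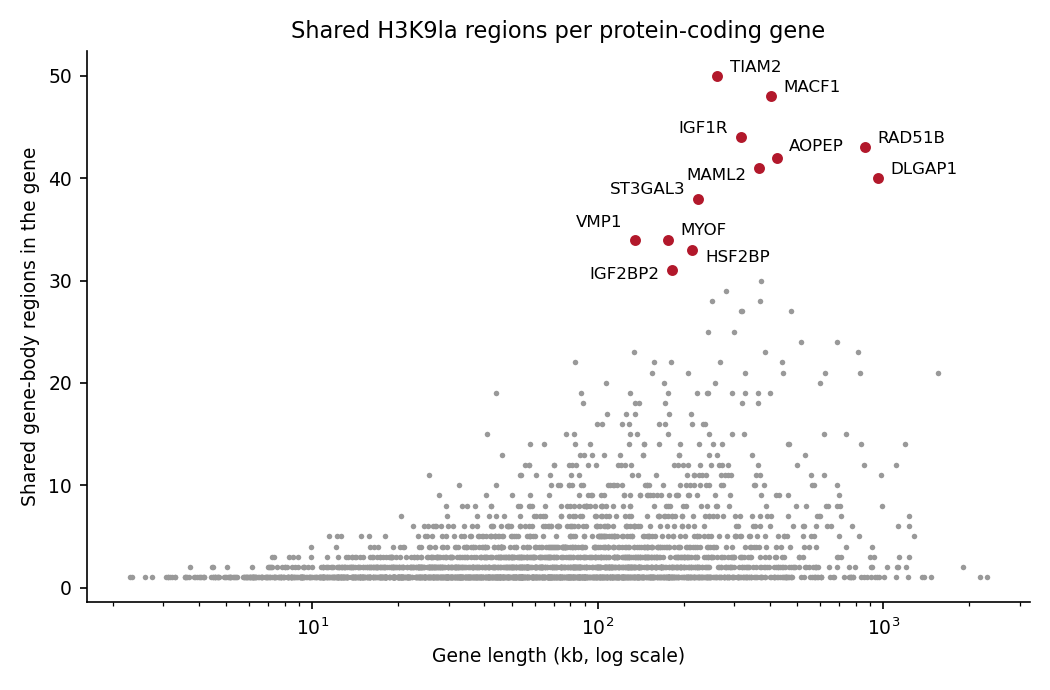
Number of shared gene-body regions in each of the 3055 genes that have one (vertical axis) against gene length in kb (horizontal axis, log scale), 1 point per gene. The 12 genes with the most regions are named in red, from TIAM2 with 50 to IGF2BP2 with 31.

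Longer genes more often held a shared region. The share of genes with a shared region was 3.23% for genes under 10 kb, 10.7% from 10 to 30 kb, 20.2% from 30 to 100 kb, 34.4% from 100 to 300 kb and 37.9% at 300 kb or more. Per Mb of gene body more than 1 kb from gene ends the order was the reverse, with 14.0, 11.3, 10.3, 9.21 and 4.03 regions. Over all genes the density was 7.88 per Mb for shared and 8.87 per Mb for sg3-only regions. The longest genes therefore stood out in number and not in density.

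TIAM2, a guanine nucleotide exchange factor gene for Rac, held 50 shared regions in 262.4 kb on chromosome 6, beside 18 sg3-only and 4 V2-only regions. Their fold enrichments ran from 2.61 to 9.87 in sg3 (median 5.60) and from 3.46 to 14.6 in V2 (median 5.75). The first summit lay 87.1 kb from the gene start, and 31 summits followed each other at steps of at most 10 kb over 78.7 kb. The highest -log10 q in sg3, 69.3, was that of the region from 155173040 to 155174815. Its V2 partner was narrower, with 721 bases against 1776 in sg3, and the summits lay 8 bases apart.

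MACF1 encodes a spectraplakin that links microtubules to actin, and held 48 shared regions in 403.0 kb on chromosome 1. The first summit lay 15.1 kb from the gene start, and 41 summits formed a run of 104.9 kb. No region of either list lay within 1 kb of either outer end of the gene. Its region with the highest -log10 q in sg3, from 39184074 to 39185675, had fold enrichments of 13.0 (sg3) and 11.6 (V2), and the highest fold enrichment of its V2 partners was 24.9. IGF1R, the receptor gene for insulin-like growth factors on chromosome 15, held 44 shared, 31 sg3-only and 8 V2-only regions. It had the highest median fold enrichment of the first 8 genes, 6.79 in sg3, with a maximum of 19.6 in sg3 and 19.1 in V2.

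RAD51B and DLGAP1 are the longest of the 12 genes and had the lowest densities. RAD51B, a gene of homologous recombination, held 43 shared regions in 863.3 kb, or 4.99 per 100 kb. It had more sg3-only regions, 57, than shared ones, and 20 V2-only regions. DLGAP1 encodes a postsynaptic scaffold protein and held 40 shared regions in 959.3 kb, or 4.18 per 100 kb. Its summits began 585.9 kb from the gene start, and 18 of them lay over 57.3 kb. Neither list had a region at either outer end of DLGAP1.

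Most regions in VMP1 were shared. This gene for a membrane protein of the endoplasmic reticulum, needed for autophagy, is 134.6 kb long on chromosome 17 and held 34 shared, 3 sg3-only and 3 V2-only regions. All 34 summits formed a single run of 91.1 kb, with a median step of 2.05 kb and a longest step of 8.82 kb. Their median fold enrichment was 6.93 in sg3 and 8.91 in V2. The region from 59829853 to 59833502 had the highest -log10 q and fold enrichment in sg3, with a fold enrichment of 17.4, and its V2 partner from 59829862 to 59837442 had 14.4. Their summits lay 2546 bases apart, so these values belong to different points of the same stretch.

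**Figure D2:**
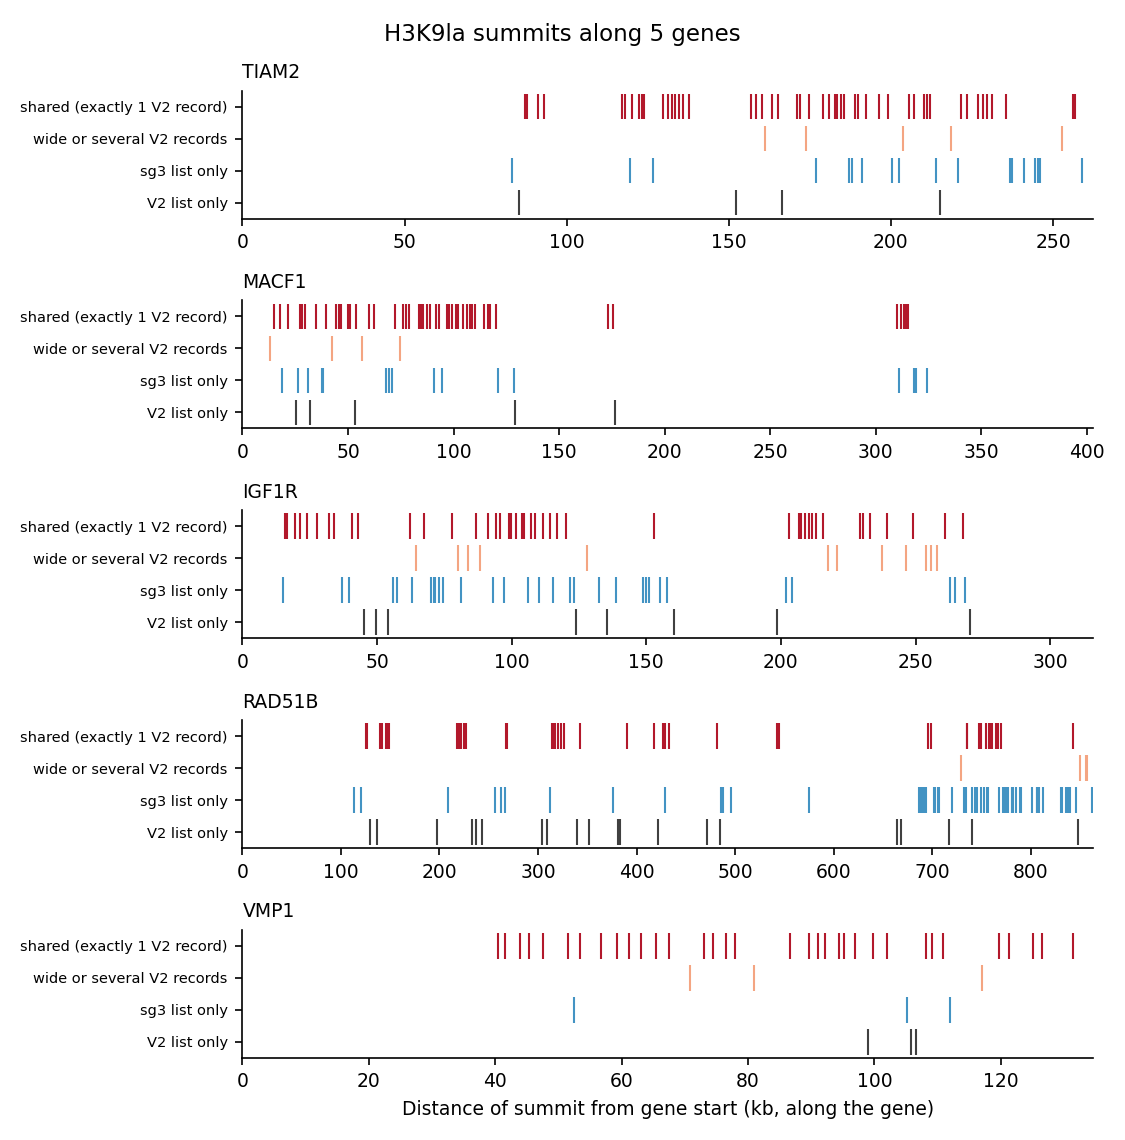
Summits of H3K9la regions along TIAM2, MACF1, IGF1R, RAD51B and VMP1, at their distance from the gene start in kb (horizontal axis), 1 line per summit. Rows from top to bottom are shared regions, sg3 regions that are wide or have several V2 partners, sg3-only regions and V2-only regions. VMP1 shows 34 shared and 3 sg3-only summits, and RAD51B 43 and 57.

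The other 6 of the 12 genes lay between these patterns. AOPEP, an aminopeptidase gene on chromosome 9, held 42 shared and 45 sg3-only regions. MAML2 held 41 and 24, ST3GAL3, a sialyltransferase gene, 38 and 19, and MYOF, the gene of the membrane repair protein myoferlin, 34 and 15. HSF2BP, whose product binds heat shock factor 2, held 33 and 12, and IGF2BP2, an mRNA-binding protein gene on chromosome 3, 31 and 9. The IGF2BP2 region from 185687391 to 185688854 had a -log10 q of 150.1 in sg3, and its V2 partner 100.7. In MAML2 the sg3 list alone had a region at a gene end, and in these other 5 both lists had one.

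Broad surroundings of the 12 genes differed. Counted over 1 Mb on either side, the sg3 list had 7.5 records per Mb around MAML2, 12 around AOPEP and 13.5 around VMP1, and it had 50.5 around HSF2BP, 51.5 around IGF2BP2 and 58.0 around ST3GAL3. Over chromosomes 1 to 22 and X it had 18.2 per Mb. DNA copy number was not measured here, and its part in these densities was not tested.

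By density the leading genes were short. Among the 558 genes with 5 or more shared regions the median was 6.66 per 100 kb of body (quartiles 3.85 and 11.9). CBR3, a carbonyl reductase gene, had 5 regions and 52.7 per 100 kb. CIB3, of a family of calcium-binding proteins, followed with 5 and 49.2, CHRNB1, a subunit of the muscle acetylcholine receptor, with 5 and 47.0, and DRC10, a dynein regulatory complex gene, with 11 and 46.5. PISD, the mitochondrial phosphatidylserine decarboxylase gene on chromosome 22, had 19 regions and 45.3 per 100 kb. All 19 formed 1 run of 30.04 kb, and no sg3-only or V2-only region lay beside them in the gene body. A further 2 sg3 regions of the body were wide or had several V2 partners, and both lists had a region at an outer end. SLC25A25, a mitochondrial carrier gene on chromosome 9, had 15 regions and 38.4 per 100 kb, with 1 sg3-only region. Its region with the highest -log10 q in sg3, from 128094716 to 128098275, had fold enrichments of 16.0 (sg3) and 18.2 (V2). SPATA12, with 5 regions and 39.2 per 100 kb, and ETHE1, a mitochondrial sulfur dioxygenase gene with 7 and 37.9, completed the 8.

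The 5 regions with the highest -log10 q in each list lay in genes other than the 12. By fold enrichment the order differs, with a maximum of 31.3 in sg3 and 27.0 in V2 over all shared gene-body regions, and the values below are those of the regions ranked by -log10 q. RUBCN, a negative regulator of autophagy on chromosome 3, held the region with the highest -log10 q in both lists among the shared gene-body regions. It ran from 197712632 to 197715546 in sg3 and from 197712629 to 197715532 in V2, with fold enrichments of 12.7 (sg3) and 12.1 (V2), and the summits lay 19 bases apart. A neighbouring RUBCN region, from 197709141 to 197711841, ranked 5th in sg3 with 12.8, and its V2 partner had 10.4. In ITGB8, an integrin subunit gene on chromosome 7, the region from 20353406 to 20354124 had 14.1 in sg3 and 14.6 in V2. CCN4, a matricellular protein gene, had 18.6 in sg3 and 7.71 in V2, and RNF130, a ubiquitin ligase gene, had 19.98 in sg3 and 9.55 in V2. The partners with the highest -log10 q in V2 also included those in NDUFAF6, a complex I assembly factor gene, with 9.35 in sg3 and 21.9 in V2, whose summits lay 1475 bases apart. ACTN4, the gene of the actin crosslinker alpha-actinin 4, had 15.4 in sg3 and 20.5 in V2 with summits 13 bases apart. The partner in TOM1L2 had 8.23 in sg3 and 10.3 in V2.

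As a class the shared gene-body regions resembled shared regions outside genes in strength. In the sg3 list their median fold enrichment was 5.31 (quartiles 4.02 and 7.36), against 5.27 (3.96 and 7.25) for 10853 shared regions outside genes, 5.94 (4.57 and 7.81) for 4552 shared regions at gene ends and 4.40 (3.64 and 5.40) for 10721 sg3-only gene-body regions. A -log10 q of 20 or more was reached by 43.1% of the shared gene-body regions, by 39.6% of those outside genes, by 74.9% of those at gene ends and by 7.12% of the sg3-only ones. Width went with strength, and the shared gene-body regions were wider than the sg3-only ones, with a median of 734 against 488 bases. Within the class of 500 to 1000 bases the median fold enrichment was 5.30 for shared and 4.55 for sg3-only regions, and under 500 bases it was 4.04 and 4.19. In the V2 list the partners of the gene-body regions had a median of 5.32 (4.19 and 6.999), those at gene ends 4.49 (3.52 and 5.73) and those outside genes 5.44 (4.30 and 7.08). By -log10 q the order within V2 was another one, since partners at gene ends had a median of 16.2, against 12.7 for those in gene bodies and 12.7 for those outside genes. A value of 20 or more was reached by 27.4% of the gene-body partners, 36.3% of those at gene ends and 26.8% of those outside genes. A region must be called in both lists to be shared, so the contrast with sg3-only regions follows in part from the choice of regions.

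**Figure D3:**
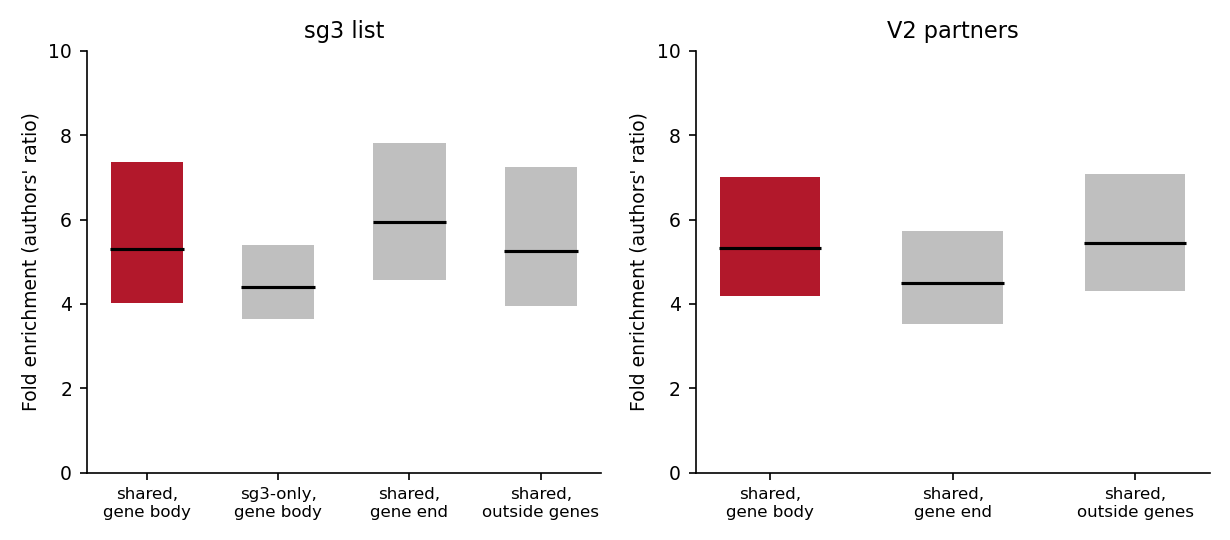
Fold enrichment (the authors' ratio, vertical axis) of regions in the sg3 list, at left, and of V2 partners, at right, for shared gene-body regions in red and other classes in grey. Boxes run from the lower to the upper quartile and black lines are medians, 5.31 in sg3 and 5.32 in V2 for the shared gene-body regions.

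Most partners in the lists had their summits close together. Pairs were chosen by overlap, and median widths were 734 bases in sg3 and 565 in V2, so the choice itself limits the distance. The distance that overlap alone would give was not computed. The median distance between the sg3 summit and the V2 summit was 49 bases, and 85.8% (95% CI 85.1 to 86.5%) of pairs lay within 200 bases. Shared regions outside genes were alike, with a median of 51 bases and 85.7%, whereas at gene ends the median was 33 bases and 90.4%. The sg3 record was the wider one in 72.5% (95% CI 71.6 to 73.4%) of gene-body pairs, against 91.9% (95% CI 91.0 to 92.6%) at gene ends. The V2 record lay wholly inside the sg3 record in 49.1% of gene-body pairs and in 78.1% of pairs at gene ends. Across the 9608 pairs, the Spearman correlation between the fold enrichments was 0.472, as a description of 1 library per arm in which each pair shares its position. The 9608 regions had 9418 distinct partners, since some V2 records overlapped more than 1 sg3 record.

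**Figure D4:**
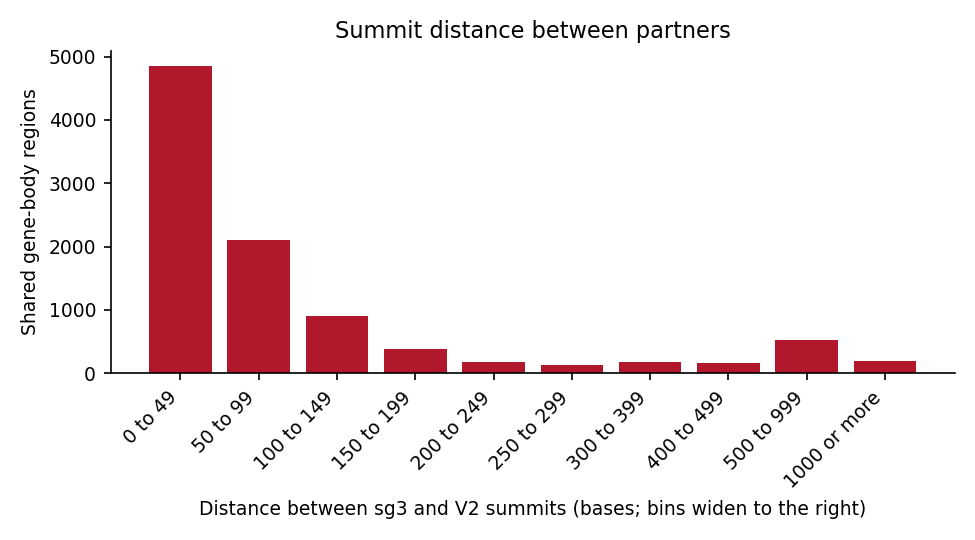
Number of shared gene-body regions (vertical axis) by distance in bases between the sg3 and V2 summits (horizontal axis, bins that widen to the right). The first bin, under 50 bases, holds 4849 regions, and 190 lie at 1000 bases or more.

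The place of shared regions along the gene depended on its length. For 7675 regions in 1 gene of known strand, 42.5% (95% CI 41.4 to 43.6%) lay in the first part of the gene when its length was divided into 3 equal parts, 32.9% in the middle and 24.6% in the last. The sg3-only gene-body regions were distributed with 39.7% (95% CI 38.6 to 40.7%), 32.0% and 28.3%. In genes of 10 to 30 kb, 45.4% of shared and 47.8% of sg3-only regions lay in the first part. In genes of 300 kb or more it was 36.2% of shared and 29.6% of sg3-only regions, and the last part held the most, with 38.8% of shared and 42.0% of sg3-only regions. The median distance from the start was 40.4 kb for shared and 38.3 kb for sg3-only regions.

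Genes with a shared region inside were more often marked at their outer ends too. An sg3 region lay within 1 kb of an end in 71.6% (95% CI 70.0 to 73.2%) of the 3055 genes with a shared gene-body region, against 42.8% of the 16919 others. For V2 regions it was 53.3% and 24.3%. Only the summit of a shared region had to lie more than 1 kb from gene ends. The record itself, or its V2 partner, could reach within 1 kb of an end, more easily in a short gene. Such records were counted as end regions and not set apart, so the contrast follows in part from the choice of regions. The difference held within each length class, for example 63.7% and 43.3% in sg3 for genes of 100 to 300 kb and 91.3% and 35.2% for genes under 10 kb. Of the genes with a shared region, 70.1% also held an sg3-only region in the body. More shared than sg3-only regions were held by 54.5% of the marked genes, and by 147 of the 202 genes with 10 or more, which were picked for their many shared regions.

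Squamous genes were the list most often marked inside. Of 30 genes of squamous identity and desmosomes, 20 had a shared gene-body region, which is 66.7% (95% CI 47.2 to 82.7%), against 15.3% of all genes and a mean of 16.9% over all genes of the same length classes. The list held 61.9 shared regions per Mb. TP63, the gene of a transcription factor of basal squamous cells, held 25 shared and 26 sg3-only regions in 300.5 kb on chromosome 3. Its region from 189839566 to 189841519 had fold enrichments of 12.4 (sg3) and 8.50 (V2), with summits 1 base apart. Only the sg3 list had a region at an outer end of TP63. CDH1, the gene of E-cadherin, held 12 shared and 5 sg3-only regions, and CDH3, the gene of P-cadherin, 10 and 4. The epithelial transcription factor genes GRHL2, with 9, and EHF, with 8, and the desmosome genes PKP1 and DSG2, with 5 each, came next.

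Adhesion and actin genes followed. In the list of integrins, hemidesmosome and focal adhesion 17 of 33 genes had a shared region (51.5%, with 26.1% for the same length classes) and 9 had 5 or more. LPP, a focal adhesion protein gene, held 15 in 737.7 kb and ACTN4 held 12. The hemidesmosome genes DST, with 12, and ITGA6, with 10, were among them. Of the actin regulators 18 of 33 (54.5%, with 31.9%) had a shared region. Beside TIAM2 these were led by TIAM1, its paralogue, with 22 shared and 13 sg3-only regions, and MYO1E, a myosin gene, with 19 and 8.

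Signalling lists were nearer to genes of their length. In the YAP-TEAD list 11 of 28 genes had a shared region (39.3%, with 23.7% for the same length classes), led by STK3, a Hippo kinase gene, with 20, WWTR1, the gene of the coactivator TAZ, with 12, and TEAD1 and the phosphatase gene PTPN14 with 10 each. YAP1 itself had 1. In the TGF-beta and mesenchymal list it was also 11 of 28, with the same length share of 23.7%. SMAD3, which carries the signal to the nucleus, held 19 shared and 26 sg3-only regions, and TGFBR3, a co-receptor gene, 14 and 14. In the EGFR and RAS-MAPK list 8 of 31 genes had one (25.8%, with 23.4%). EGFR held 13 shared and 33 sg3-only regions in 192.6 kb, and its shared regions had a median enrichment of 5.50 (sg3) and 4.12 (V2). SPRED2, an inhibitor of the pathway, held 6 shared and 6 sg3-only regions, and the kinase gene MAP2K1 3 and 0.

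Genes of lactate metabolism and of the enzymes that add or remove acyl marks held small numbers of shared regions each. In glycolysis and lactate transport 9 of 27 genes had one (33.3%, with 15.2% for the same length classes), and none had 5 or more. The genes of this list are short, with a median of 27.3 kb, and held 14.4 shared regions per Mb, against 7.88 over all genes. All genes under 10 kb held 14.0 per Mb and those from 10 to 30 kb 11.3. The list held 31.5 sg3-only regions per Mb, against 8.87 over all genes, 25.2 under 10 kb and 16.2 from 10 to 30 kb. PFKP, a phosphofructokinase gene, held 4, the hexokinase gene HK2 3, and the hexokinase gene HK1 and PFKFB3, a regulator of phosphofructokinase, 2 each. Of the lysine deacylases and acyl transferases 9 of 30 had one, with 20.2% for the same length classes, led by HDAC5 and the coactivator gene NCOA2 with 7 each, and the deacetylase gene HDAC9 and NCOA3 with 4 each. This list held 8.57 shared regions per Mb. EP300, SIRT3 and LDHA had none in the body, and both lists had regions at an outer end of each. A count of 0 regions says that none was called in this part of the gene.

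Very long genes and marker genes of unrelated cell types held fewer shared regions per Mb than all genes in every list but that of fibroblast and endothelium. Of 20 very long and fragile site genes 7 had a shared region (35.0%, with 37.9%), at 1.00 per Mb, and 21 of their 31 regions lay in PDE4D. IMMP2L held 3, and WWOX and LRP1B 2 each. The neuron list had 7 of 15 genes with a shared region (46.7%, with 32.5% for the same length classes), at 1.21 per Mb, and CACNA1A, a calcium channel gene, was highest with 3. The blood list had 4, the liver list 2 and the muscle list 1 of 15 genes, with 8, 3 and 1 regions. These are 26.7%, 13.3% and 6.67%, with 20.4%, 16.5% and 23.6% for the same length classes. The blood list had 5.57 per Mb, the liver list 4.03 and the muscle list 0.409. In the fibroblast and endothelium list, at 12.5 per Mb, 3 of 15 genes had one, and 2 endothelial genes of it had 5 or more, VWF with 8 and CDH5 with 5. Over all 75 markers, 17 genes had a shared region, which is 22.7% (95% CI 13.8 to 33.8%), against 103 of 240 genes, or 42.9% (95% CI 36.6 to 49.4%), of the functional lists other than the very long genes. These pooled shares are not matched for gene length. The neuron and blood lists lay above the shares of their length classes, and the other marker lists lay below theirs. The median number of shared regions per gene was 1 in the squamous, adhesion and actin lists and 0 in every other list and over all protein-coding genes.

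**Figure D5:**
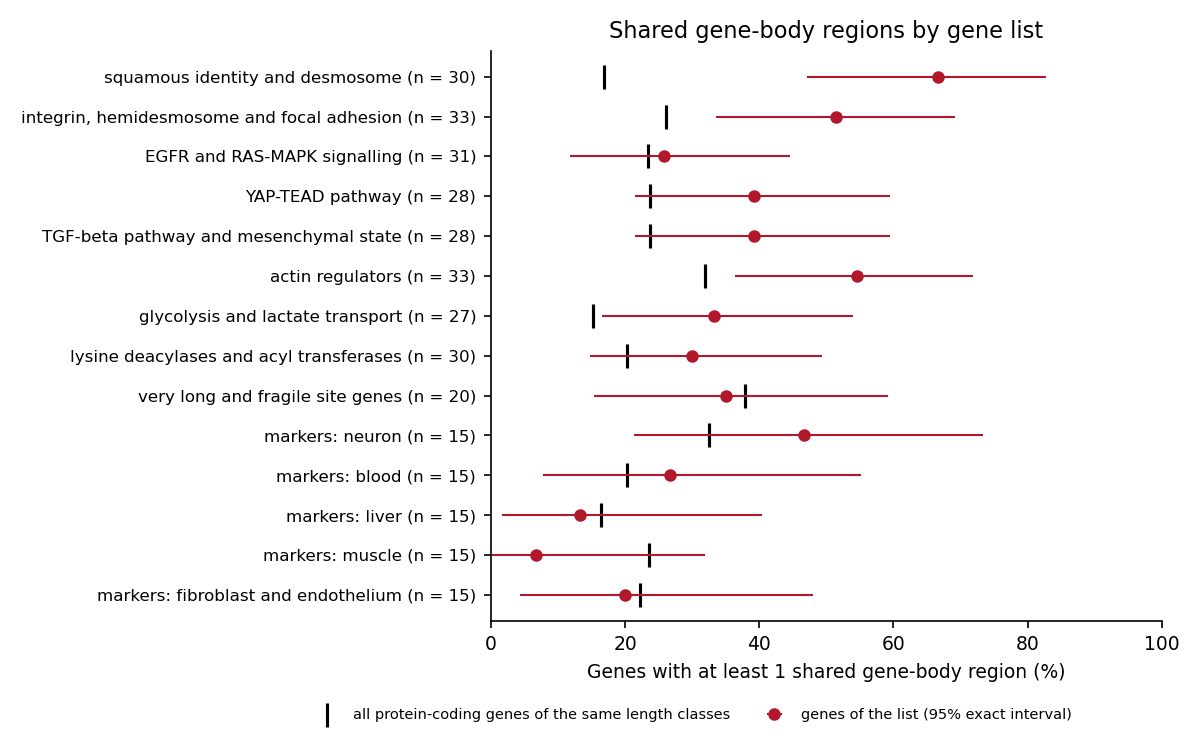
Share of genes with at least 1 shared gene-body region (horizontal axis, %) for each gene list, with exact 95% intervals for counting error (red), and the mean share of all protein-coding genes of the same length classes (black bars). The squamous list lies at 66.7% with a bar at 16.9%.

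Chromosomes differed in the density of shared regions per Mb of protein-coding gene. Chromosome 17 had 14.7, chromosome 19 had 14.2 and chromosome 22 had 12.7, against a median of 7.72 over chromosomes. The X chromosome was lowest with 2.28, followed by chromosome 4 with 4.58 and chromosome 5 with 5.32. The sg3-only regions had 13.7, 14.4 and 15.2 per Mb on chromosomes 17, 19 and 22, and 2.81 on X. Neighbouring shared regions on a chromosome lay a median of 5.62 kb apart (quartiles 1.80 and 106.5 kb).

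Regions at the limits of the choice had these values. The widest region taken, in BIN1, had 4834 bases and a fold enrichment of 11.5, and the narrowest one left out for its width, in TRIP13, had 5025 bases and 21.4. The region nearest to a gene end, in RITA1, had its summit just past this limit and a fold enrichment of 4.73, and a shared region in MCMBP left out because its summit lay 1000 bases from an end had 4.63.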

How the data were processed

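The authors deposited 1 list of peak records for each arm, in the narrowPeak layout of MACS2. Per the submitters' processing notes, the tools were MACS2 2.2.9.1, SAMtools 1.18, Bowtie2 2.5.1, Trim Galore 0.6.10 and FastQC 0.12.1, with hg38. The V2 list stands in the record of that arm's input sample and was taken as the V2 arm's list. The settings and control of the peak calls are not given in the sources used. Fold enrichment (a ratio), the -log10 p and -log10 q, and the integer score of a record are the authors' deposited values. The -log10 p and the score were not used further, and the summit offset gave positions.

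Genes came from a RefSeq table of GRCh38.p14, which holds 19974 protein-coding genes on the autosomes and X. Strand and internal starts came from its table of 300-base start windows, which gave a strand for 15812 of these genes. Gene ends are those of protein-coding genes. Partners overlap by at least 1 base. Density is per base of gene body more than 1 kb from every gene end. With no genome sequence here, letters at summits are shown only where a start window or a microRNA covers them. Overlap and placement were tested on simulated data. Python 3.11.15, pandas 2.3.3 and SciPy 1.17.1 were used.

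The regions and gene lists were chosen with earlier results of these data known. Text names the 12 genes with the most regions, the 8 with the highest density among genes with 5 or more, the genes of the 5 regions with the highest -log10 q in each list, 3 genes of each functional list, EP300, SIRT3 and LDHA, and markers with 5 or more. Some genes under this rule are not reported here. Further members of lists, the windows and microRNAs shown and the map of VMP1 were chosen after their values were seen.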

Additional observations from a re-analysis of the deposited data

How the results depend on the processing

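Across 13 alternative settings, 12 planned and 1 chosen after seeing the data, the number of shared gene-body regions ranged from 5753 to 13058, against 9608, and the number of genes with one from 2218 to 3291, against 3055. With a -log10 q of at least 10 in both lists there were 5753 regions, a median fold enrichment of 6.42, a median summit distance of 39 bases, sg3 regions at an outer end of 66.9% of marked genes, 82 genes with 10 or more regions and 34.2% of functional-list genes marked. With -log10 q of at least 5 the fold enrichment was 5.53 and the distance 46. With fold enrichment of at least 4 they were 6.48 and 45, with 61.9% and 108 genes. With the sg3 list shortened by -log10 q to the length of the V2 list they were 5.88 and 46, with 67.5%. Allowing 2 or more partners gave 5.57 and 53, and widths under 2000 bases gave 5.15. Keeping only regions with summits over 2.5 kb from gene ends, 67.7% of marked genes had an outer end marked in sg3. Keeping only those over 5 kb away, it was 65.9%. Counting V2 records instead gave 5.46, 64 bases, 55.2% with V2 regions at an end, and 329 genes with 10 or more. The causes were not tested. Of the 12 genes with the most regions, 9 to 12 stayed among the first 12 under each setting. TIAM2 led under 7 of the 13 settings, MACF1 under 5 and ST3GAL3, with 72, under the V2 count. Of the 12 genes, 9 moved by over 1.5 times under at least 1 setting, and MACF1, DLGAP1 and VMP1 did not. At a -log10 q of at least 10 TIAM2 had 26 regions, IGF1R 27, RAD51B 26, MAML2 26, MYOF 22 and HSF2BP 17. With fold enrichment of at least 4 AOPEP had 27 and IGF2BP2 18. Counting V2 records IGF1R had 69, AOPEP 71 and HSF2BP 58. No paired analysis was possible because each arm has 1 list. Read depth is unknown, so no detection limit can be given for a region missing from a list.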
